A study of Mus musculus with 6 samples.

Results

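The array used for LSC GFP+ and LSC GFP- cells carries, beside its probes for known genes, a large set of probes for long noncoding RNA transcribed between genes. These probes were taken as all non-control probes whose name begins with A_30_P, a choice that uses the array design and no measured value. They number 16251 of 55681 non-control probes (29.2%), against 39430 other probes. The LSC cells were Lin- (Ter119, CD31 and CD45), Sca-1+ and CD49f+ cells sorted from prostates of 6-day-old male FVB/N mice carrying the transgene Tg 11.5kb-GFP, in which the s-SHIP promoter drives GFP. Both populations came from these transgenic mice, received no treatment and differed only in the GFP gate, and each was represented by 3 independent samples with 1 array per sample. Whether a sample pooled prostates of several mice was not stated in the sources used here.

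Long intergenic noncoding RNAs (lincRNAs) are transcripts that hold no long reading frame and lie apart from protein-coding genes. Some stay in the nucleus and act on chromatin or on nuclear bodies, as Xist, which coats the inactive X chromosome, and Neat1, the scaffold of paraspeckles, do. Others are transcribed next to developmental transcription factor genes and are often expressed in the same tissues as their neighbors. As a class they are known for low levels and for expression limited to few cell types.

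The 16251 probes, each 60 bases long and spotted once, cover 3555 genomic intervals of mm9 on 20 chromosomes, which merge into 2231 separate loci. Each interval is named by its position and strand, and 1067 intervals carry probes for both strands, so there are 4622 names with a median of 3 probes and at most 10. The intervals have a median length of 7328 bases. Well-studied RNAs, 12 in all and covered by 57 of the probes, are listed under a symbol in place of a position. The label intergenic fits most but not all of the intervals, since 149 of 3555 (4.19%) hold a probe for a protein-coding RefSeq transcript, and the nearest RefSeq probe lies within 10 kb of 1141 intervals (32.1%).

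The sequences of the probes that the comparison of the populations turned on are given first, 5' to 3' on the strand of the probe, with mm9 positions. Capitals mark the bases that a probe shares with the probe printed beside it on the opposite strand, or for BRN1-A with the array's probe for 2610017I09Rik, a noncoding transcript upstream of Pou3f3.
chr8:60133623-60133682, reverse strand: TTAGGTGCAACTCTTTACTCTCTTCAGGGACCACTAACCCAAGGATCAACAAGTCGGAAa
chr8:60133624-60133683, forward strand: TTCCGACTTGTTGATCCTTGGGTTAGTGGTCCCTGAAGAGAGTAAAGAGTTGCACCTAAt
chr1:42759215-42759274, reverse strand: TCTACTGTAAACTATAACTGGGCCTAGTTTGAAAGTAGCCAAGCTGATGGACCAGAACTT
chr1:42759215-42759274, forward strand: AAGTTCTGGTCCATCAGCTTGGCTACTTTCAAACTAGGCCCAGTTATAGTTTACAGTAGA
chr19:23069648-23069707, reverse strand: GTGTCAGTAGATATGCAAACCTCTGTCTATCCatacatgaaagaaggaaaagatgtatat
chr19:23069676-23069735, forward strand: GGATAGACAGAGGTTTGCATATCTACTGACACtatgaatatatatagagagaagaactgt
BRN1-A, chr1:42705111-42705170, reverse strand: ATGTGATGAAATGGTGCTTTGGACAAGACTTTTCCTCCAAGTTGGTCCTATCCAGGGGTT
Near Hoxb4, chr11:96175777-96175836, forward strand: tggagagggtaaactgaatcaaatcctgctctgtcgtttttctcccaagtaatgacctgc
Near Egr3, chr14:70484011-70484070, forward strand: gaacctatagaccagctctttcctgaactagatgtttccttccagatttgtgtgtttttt
Near Lemd3, chr10:120337219-120337278, reverse strand: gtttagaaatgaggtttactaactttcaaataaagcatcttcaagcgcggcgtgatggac

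A further set is printed because their signals bear on what a single probe can say of a transcript. Capitals mark bases shared with the Malat1 probe of the array (NEAT2) and bases shared, on the opposite strand, with its probe for the ribosomal protein gene Rps15a (the interval on chromosome 2).
NEAT2, chr19:5795713-5795772, reverse strand: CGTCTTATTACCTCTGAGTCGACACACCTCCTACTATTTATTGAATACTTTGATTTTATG
chr19:5802130-5802189, reverse strand: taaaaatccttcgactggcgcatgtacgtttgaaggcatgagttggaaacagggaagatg
chr17:39980645-39980704, reverse strand: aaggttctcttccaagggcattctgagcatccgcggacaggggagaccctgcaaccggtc
chr2:152011035-152011094, forward strand: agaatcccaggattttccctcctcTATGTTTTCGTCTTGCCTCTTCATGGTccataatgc
NEAT1, chr19:5842726-5842785, reverse strand: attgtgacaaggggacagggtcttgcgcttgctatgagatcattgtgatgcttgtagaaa
H19, chr7:149761693-149761752, reverse strand: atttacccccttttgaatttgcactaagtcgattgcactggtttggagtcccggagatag

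A smaller share of the lincRNA probes than of the other probes was detected on every array. On LSC GFP+ replicates 1, 2 and 3, 73.9%, 60.5% and 63.5% of the lincRNA probes were well above background, the scanner software's call for a spot that clearly exceeds the signal around it, against 76.4%, 68.0% and 70.6% of the other probes. On LSC GFP- replicates 1, 2 and 3 the shares were 61.6%, 71.4% and 69.2% against 69.0%, 75.6% and 74.6%. The lincRNA share was lower by 5.67 percentage points on average (SD 2.07, n = 6 arrays, lower on 6 of 6). An exact two-sided sign-flip permutation test over the arrays gave p = 0.031, the smallest that 6 arrays allow. The test treats the 6 arrays as independent, although same-numbered samples are taken below as pairs. Its p does not measure the spread over probes or transcripts. The populations overlapped in this share, which was 66.0% ± 7.05 (SD, n = 3) in LSC GFP+ and 67.4% ± 5.15 in LSC GFP- cells. Counted by interval name, where 1 detected probe among several is enough, 83.4% to 91.1% of the names were detected on an array, and with the scanner software's weaker call of a positive and significant spot the classes differed by 0.621 percentage points on average (exact p = 0.125).

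**Figure D1:**
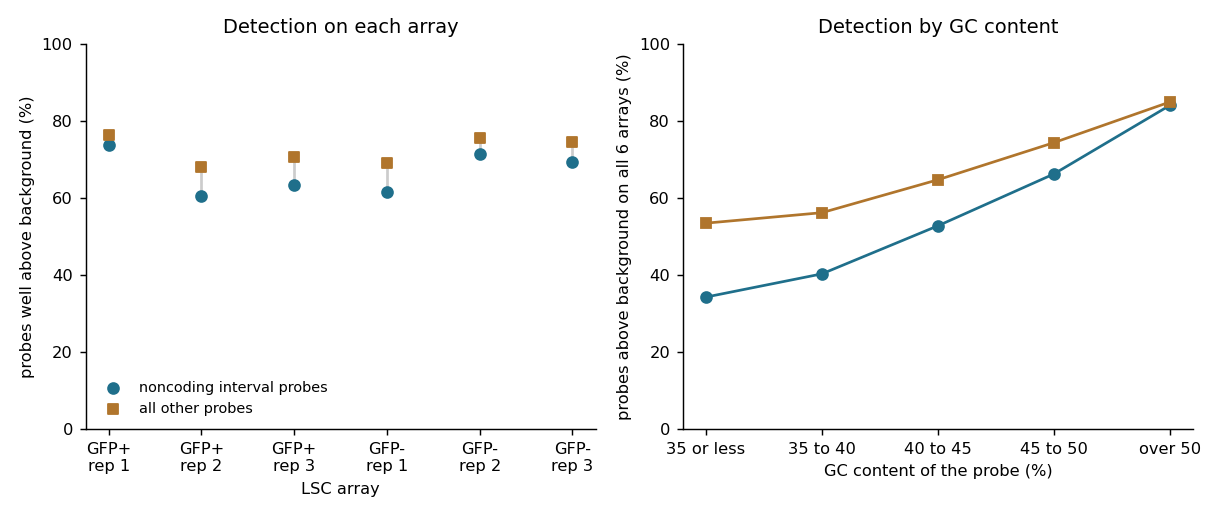
Left, percent of probes well above background on each of the 6 arrays (rep, replicate), for the 16251 lincRNA interval probes (circles) and the 39430 other probes (squares). Right, percent of probes above background on all 6 arrays by GC content of the probe. The lincRNA probes lie below the others on each array, with differences of -7.58 to -2.46 percentage points, and the shares are 34.3% against 53.5% at a GC content of 35% or less but 84.0% against 84.9% above 50%.

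The lincRNA probes were richer in GC (median 45%) than the other probes (41.7%), and in each of 5 classes of GC content a smaller share of them was detected. Above background on all 6 arrays were 34.3%, 40.3%, 52.8%, 66.2% and 84.0% of the lincRNA probes from the lowest to the highest of 5 GC classes. The other probes gave 53.5%, 56.2%, 64.8%, 74.4% and 84.9% in the same classes. Detection thus depended on GC more steeply among the lincRNA probes. On the log2 scale relative to the 75th percentile of each array, used for all levels below, the median lincRNA probe stood at -3.16 and the median of the other probes at -2.14, and 14.8% of lincRNA probes but 28.4% of the other probes exceeded that percentile. Of the 100 brightest probes on the array 5 were lincRNA probes.

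Distance to the nearest RefSeq probe, of a coding or noncoding transcript, went with level. Of the probes in intervals that hold a RefSeq probe 69.7% were above background on all 6 arrays, with a median level of -2.05. The share was 60.1% where the nearest RefSeq probe lay up to 10 kb away, 50.7% from 10 to 100 kb and 42.1% beyond 100 kb, where the median level was -3.94. The median GC content was 45% in the first 3 classes and 43.3% in the last.

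The brightest lincRNA probe lay in an interval that holds RNA made by nearly every cell. This probe (chr17:39980645-39980704), in an interval holding the probe for Rn18s, the 18S ribosomal RNA, read 9.54, 9.87 and 8.76 in LSC GFP+ and 9.21, 9.59 and 8.20 in LSC GFP- cells. The probe on chromosome 2 that shares 27 bases with the Rps15a probe reached 8.85, and 366 lincRNA probes (2.25%) share 25 bases or more with a probe of the other class on either strand. Others among the 8 brightest names were chrX:33750475-33770425 at 8.94, chr5:52461266-52541416 at 8.07, an interval on chr18 at 8.41 and a pair within Malat1. None of the probes given here was called between the populations at an unadjusted p of 0.05. With the replicate numbers as a block the chr17 probe was (0.39, higher in LSC GFP+ in each of the 3 pairs), as were 4 of the 5 probes of its interval against none without the block, but without LSC GFP- replicate 3 its difference was -0.00986.

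Malat1, also called NEAT2, an abundant nuclear RNA, shows how far a level depends on the probe. The 3 NEAT2 probes and the Malat1 probe, which lie side by side at one end of the NEAT2 interval, read between -2.14 and 0.19 on average. The 3 probes of chr19:5801802-5802597_R, inside the same NEAT2 interval, read 6.79 to 9.08, and the 3 probes of chr19:5795690-5797464_F, on its other strand, read 5.74 to 8.20. The NEAT2 probe printed above and the Malat1 probe have the same 60 bases and read -2.01 and -2.14. Over the 79 lincRNA probes whose sequence also occurs in the other class the median gap between the identical probes was 0.10 and the largest 0.81. By contrast, the probes of 1 name had a median SD of 1.45 in level over the 3397 names with at least 3 probes. Levels of different transcripts on this array can therefore not be ranked from single probes, and only differences between populations at the same probe are compared below.

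The RNAs listed by symbol are given by what their probes read. The 5 probes of H19, an imprinted RNA of fetal tissues, averaged between 4.31 and 6.01, while 1 of the 2 RefSeq probes of H19 read -1.12. The average over the 5 was 4.48, 4.44 and 5.51 in LSC GFP+ replicates 1, 2 and 3 and 5.15, 5.03 and 5.94 in LSC GFP- replicates. The 5 probes of TUG1, a broadly expressed RNA, read 1.80 to 3.80 and its 3 RefSeq probes -2.38 to 0.50, and the average over the 5 was 2.64, 2.90 and 2.88 in LSC GFP+ and 2.55, 2.64 and 2.82 in LSC GFP- cells. KCNQ1ot1, the antisense RNA that silences an imprinted domain, was above background with all 5 probes at -2.69 to 3.20. The probes of XIST, of its antisense partner TSIX and of HOTAIR, which is transcribed from the Hoxc cluster, did not pass the filter for testing, which required a probe to be well above background on all 3 arrays of a population. XIST averaged between -5.38 and -4.39 on the 6 arrays, which come from males. Probes of the other class read these RNAs otherwise, since a Tsix probe was above background on all 6 arrays at -3.26 on average (difference 0.30 ± 0.42, not called), and the brighter Xist probe was above background on 4 arrays and ranged from -5.58 to -1.53. PINC (2 of 5 probes tested), NRON (3 of 5) and lincP21, a p53-induced RNA (3 of 5), had no probe above -0.97.

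**Figure D2:**
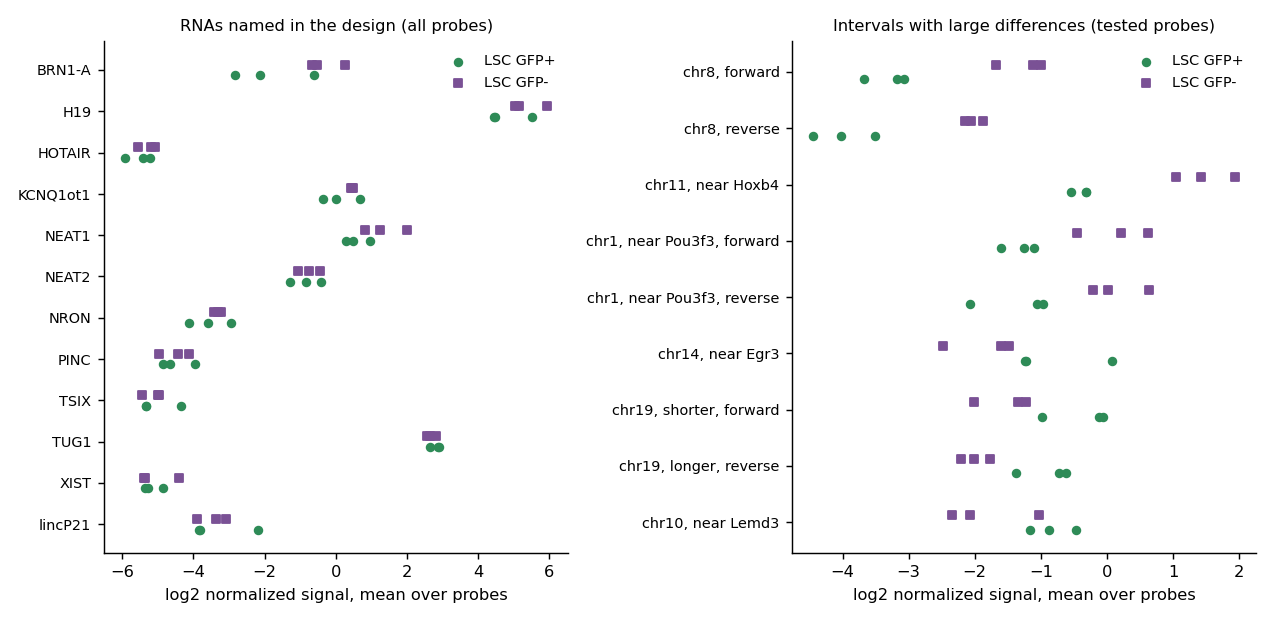
Log2 normalized signal on each array, LSC GFP+ (circles, 3 arrays) and LSC GFP- (squares, 3 arrays), averaged over all probes of the RNAs listed by symbol (left) and over the tested probes of intervals with large differences (right). TUG1 lies between 2.55 and 2.90 on all 6 arrays. The chr8, chr11 and chr19 intervals and the chr1 interval near Pou3f3 do not overlap between the populations. They were named by a called probe without overlap, so this separation follows from the choice and is no further result.

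NEAT1 and BRN1-A were the 2 names in this list with probes that passed the test. Here and below a probe was called at an unadjusted p under 0.05 in limma, fitted over all 37005 probes tested. The 5 NEAT1 probes differed by -0.90 to -0.71 on the log2 scale, and 3 of 5 were called. Averaged over probes NEAT1 read 0.28, 0.96 and 0.48 in LSC GFP+ and 1.24, 2.0 and 0.82 in LSC GFP- cells, so that the highest LSC GFP+ sample exceeded the lowest LSC GFP- sample. Leaving out any of 4 arrays (replicates 1 and 3 of LSC GFP+, replicates 1 and 2 of LSC GFP-) ended the 3 calls, as did scaling to the array median, both looser filters on dim probes and the methods' t-test. The RefSeq probe of Neat1 gave -0.69 ± 0.33 (SE) and was not called. With the replicate numbers as a block all 5 NEAT1 probes and the RefSeq probe were called. All 5 H19 probes gave values below 0, at -0.60 to -0.49, of which none was called without the block and 5 of 5 with it. TUG1 gave 0.07 to 0.17 and KCNQ1ot1 -0.72 to -0.08, with no probe called. Among noncoding RNA genes with probes of the other class, 29 of 34 were tested and 2 were called (6.90%, against 7.9% of all tested probes), both lower in LSC GFP+ cells, and with the block 5 were (17.2%, against 14.8%). These were Dnm3os, the host RNA of a microRNA cluster, which read -3.31, -4.63 and -4.35 in LSC GFP+ and -1.51, -2.49 and -2.92 in LSC GFP- cells (-1.79 ± 0.45, adjusted p = 0.24), and Snhg11, a small nucleolar RNA host gene (-1.71 ± 0.72, adjusted p = 0.61), each above background on only 1 of 3 LSC GFP+ arrays.

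Of the 16251 lincRNA probes 9945 (61.2%) passed the filter, in 2951 of the 3555 intervals, and 674 (6.78%) were called, where 7.9% of all tested probes were called and 8.32% of the other probes. Higher in LSC GFP+ cells were 205 lincRNA probes (2.06%, against 3.38% of all tested probes) and lower were 469 (4.72%, against 4.53%). Of the called lincRNA probes 69.6% were lower in LSC GFP+ cells and of the other called probes 53.6%. After quantile normalization the lincRNA share was 56.4%, and of the other called probes 1147 were lower and 1302 higher. After scaling to the array median the lincRNA share was 57.4%, and of the other called probes 909 were lower and 1182 higher. The lower share thus fell in both classes. No lincRNA probe passed an adjusted p of 0.05 (limma, Benjamini-Hochberg over all 37005 probes), and 1 of the 27060 other probes did. The lowest among the lincRNA probes was 0.057, at a probe not above background on any LSC GFP+ array. With the populations' replicate numbers as a block, 1286 lincRNA probes were called (12.9%, against 14.8% of all tested probes), and without LSC GFP+ replicate 1, the array with the most detected probes, 1179 were called, of which 1011 were lower. Without LSC GFP+ replicate 3 the higher probes numbered 311. At 1006 lincRNA probes (10.1%) the 3 arrays of one population did not overlap those of the other, as at 12.3% of all tested probes. The calls lay at 333 of the 1896 loci tested, 224 with lower and 117 with higher probes, and 8 loci held both. With the block they lay at 594 loci. A locus can hold several tested probes, and no like count over the other class is given.

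The median difference was -0.045 over the 9945 lincRNA probes and 0.012 over the 27060 other probes. In size the lincRNA median was below the SD of 0.19 between the array medians of a population, and it changed sign when arrays were scaled to their median (0.024) or when an array was left out, whether replicate 2 (0.018) or 3 (0.017) of LSC GFP+ or replicate 2 of LSC GFP- (0.0042). Scaling moves both classes alike, and the other median was then 0.081. The lincRNA median minus the other median was -0.057 with both scalings. Without 1 array it ranged from -0.18 to 0.012 and was above 0 only without LSC GFP+ replicate 3. In each of 4 equal classes of mean signal a smaller share of lincRNA probes than of other probes was called, 9.42%, 6.05%, 5.36% and 4.25% from the lowest to the highest class against 11.6%, 8.98%, 8.56% and 5.09%. With the block the shares were 15.7%, 11.7%, 11.5% and 11.04% against 19.1%, 16.6%, 15.9% and 11.5%. Without it, in the upper 2 classes calls toward higher signal made up the difference, with 1.62% and 1.84% of lincRNA probes against 4.82% and 3.41% of other probes. The median spread within a population was slightly wider at the lincRNA probes, 0.33 against 0.30 in the second class and 0.29 against 0.26 in the third.

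**Figure D3:**
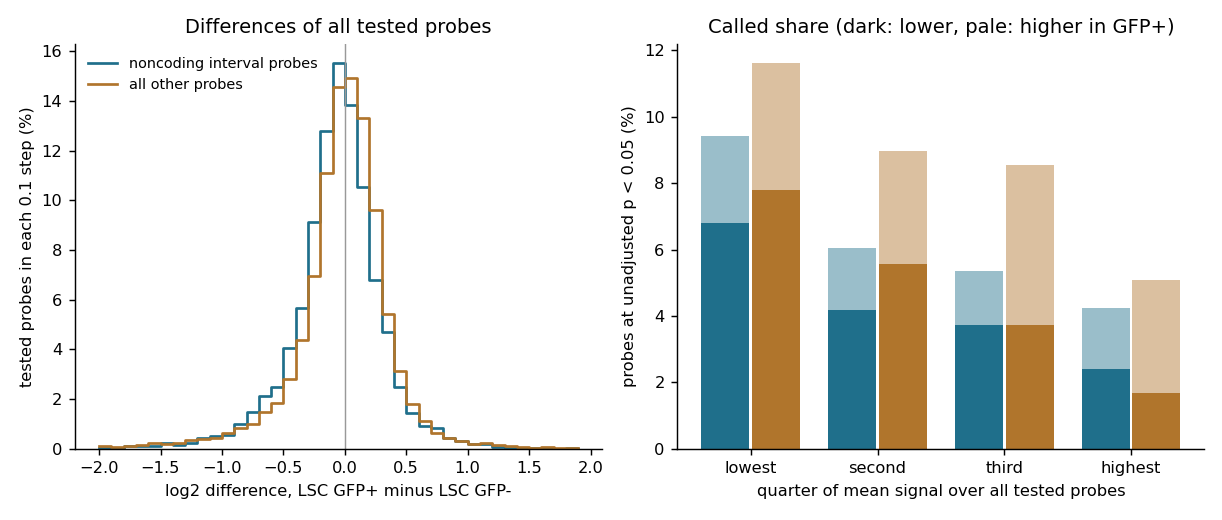
Left, distribution of the log2 difference between LSC GFP+ and LSC GFP- cells over the 9945 tested lincRNA interval probes and the 27060 other tested probes, in steps of 0.1 between -2 and 2 (14 and 95 probes lie beyond). Right, percent of probes called at an unadjusted p under 0.05 in 4 equal classes of mean signal, lincRNA probes at the left of each pair of bars, dark for lower and pale for higher in LSC GFP+ cells. The lincRNA distribution sits slightly to the left, and a smaller share of lincRNA probes is called in each class.

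Probes on opposite strands of the same bases read alike. The array holds 1773 pairs with a lincRNA probe that overlap by at least 30 bases on opposite strands and 466 that overlap on the same strand. Levels within the opposite-strand pairs correlated with Pearson's r = 0.70 (Spearman's rho 0.69) across the pairs, and 45.5% of pairs differed by less than 1 on the log2 scale. The same-strand pairs gave r = 0.92 (rho 0.91), and 82.0% differed by less than 1. The differences between populations correlated with r = 0.74 (rho 0.66) over the 923 opposite-strand pairs with both probes tested and r = 0.89 (rho 0.83) over 293 same-strand pairs. Pairs share arrays and neighboring sequence and are not independent, so these values are descriptions. Over the 909 intervals with tested probes for both strands, whether overlapping or not, the mean differences of the strands correlated with r = 0.55 (rho 0.50). The sources used here do not say that strand was kept during amplification and labeling, and the strand of a name is therefore used below only to tell probes apart.

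**Figure D4:**
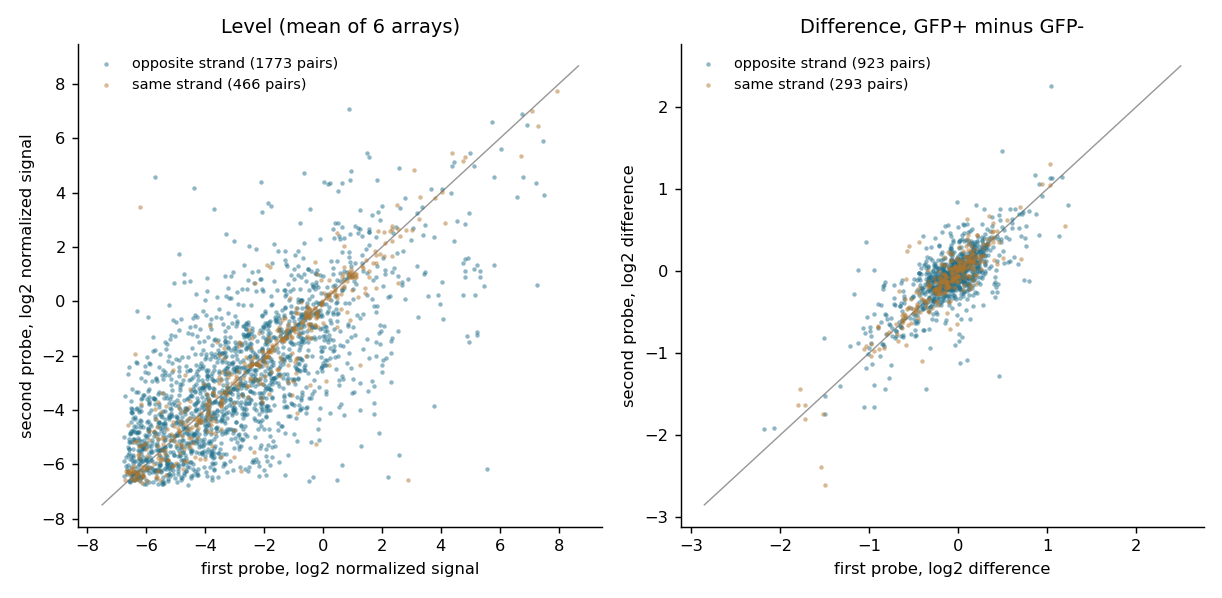
Mean log2 signal over 6 arrays (left) and log2 difference between LSC GFP+ and LSC GFP- cells (right) for pairs of probes that overlap by at least 30 bases, on opposite strands (1773 pairs, 923 with both tested) or on the same strand (466 and 293 pairs), with the line of equality. Same-strand pairs lie close to the line, and opposite-strand pairs follow it with a wider spread.

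Of the 2516 names with at least 2 tested probes, 132 had 2 or more called in 1 direction, 96 lower and 36 higher in LSC GFP+ cells, and no name had 2 or more in each. With the block 250 names did, 149 lower and 101 higher. Over all tested probes 4.53% were called lower and 3.38% higher without the block. No like count over genes of the other class is given, so the 132 names have no background of their own. Within a name the differences had a median SD of 0.18 over the 1600 names with 3 or more tested probes, against 0.38 over all tested lincRNA probes. For levels the median SD within a name, 1.45 over a larger set of names, stood against 2.67 over all lincRNA probes. Probes of a name share their target and often neighboring bases, and several called probes count as repeated readings of 1 interval.

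Among probes above background on all 6 arrays the largest decrease in LSC GFP+ cells was in the interval chr8:60132300-60146830, 109 kb from the nearest RefSeq probe, that of Galntl6. The reverse-strand probe printed first above read -3.36, -3.80 and -2.97 in LSC GFP+ and -0.92, -1.32 and -1.35 in LSC GFP- cells (difference -2.18 ± 0.26 SE, adjusted p = 0.070 by limma). Its opposite-strand partner, which shares 59 bases, gave -1.92 ± 0.24, and the forward probe with the largest difference gave -2.30 ± 0.31. Of 7 tested probes of the interval 6 were called, 3 on each strand, and all 6 lay within 0.205 kb of each other, so they cover 1 short stretch. The nearest tested probe outside that stretch, also on the reverse strand, gave -0.23 ± 0.25 and was not called. At 1 of the 6 no LSC GFP+ array reached the background call, and LSC GFP- cells were at least 5.63-fold higher there. At each of the 6 called probes all LSC GFP+ arrays read below all LSC GFP- arrays. The interval was named by called probes without overlap, so this follows largely from the choice. At 12.3% of all tested probes the populations did not overlap.

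A shorter interval between Hoxb5 and Hoxb4, chr11:96175764-96176029, fell with the genes around it. Hox genes encode transcription factors that set position along the body axis, and those of the Hoxb cluster lie side by side on chromosome 11. The probe printed above read -0.41, -0.01 and 0.14 in LSC GFP+ and 1.82, 2.30 and 1.37 in LSC GFP- cells (-1.92 ± 0.28, adjusted p = 0.094 by limma), and the other 2 probes of the interval gave -1.89 and -1.79. Hoxb4, 6.86 kb away, gave -1.59 ± 0.24. Within 100 kb of the Hoxb4 probe 15 lincRNA probes were tested, and all 15 had negative differences, with a median of -0.50. Called were 5 (6 with the block), where 4.53% of all tested probes were called lower. Of the 5, 3 lay in this interval and the others gave -1.37 in chr11:96173788-96174352 and -1.44 in chr11:96111499-96126224. The window was set around an interval named for its decrease, so these counts follow in part from that choice. Of the 9 Hoxb genes tested 8 fell, Hoxb2 to Hoxb9, while Hoxb13, at the far end of the cluster, rose (0.80 ± 0.23), and the median over the 9 was -1.34. Hoxb values of the other class are given as the neighborhood of these intervals and were looked up after the intervals had been seen. No lincRNA probe lay at the Hoxa or Hoxd cluster, and the 5 HOTAIR probes at Hoxc were not tested.

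The third group of decreases surrounds Pou3f3 (also called Brn1), a POU-domain transcription factor known from the developing brain and kidney. Within 100 kb of its probe 23 lincRNA probes under 6 names were tested, all 23 had negative differences and 20 were called, with a median of -1.49. Of all tested probes 4.53% were called lower. The window was set around probes already named for their decrease, so the shared sign and the share called follow in part from that choice. Several of the probes are repeated readings of the same short stretch. The called probes lie in 4 places, with BRN1-A farthest before the Pou3f3 probe and chr1:42759171-42771337 farthest after it, 65.1 kb apart. The BRN1-A probe printed above read -2.86, -1.46 and -0.09 in LSC GFP+ and -0.08, 0.14 and 0.93 in LSC GFP- cells (-1.80 ± 0.63, adjusted p = 0.47), so that LSC GFP+ replicate 3 and LSC GFP- replicate 1 nearly touched. All 4 BRN1-A probes were called, at -1.81 to -1.05, and all 4 lost the call without LSC GFP+ replicate 1, without LSC GFP+ replicate 2, without LSC GFP- replicate 3 and with the methods' t-test. The named probes after the gene kept their call under each alternative that tested them. The forward probe with the largest difference in chr1:42759171-42771337 read -0.53, -0.85 and -0.29 in LSC GFP+ and 0.37, 1.46 and 1.83 in LSC GFP- cells (-1.78 ± 0.38, adjusted p = 0.17). The reverse strand of the same interval, whose 5 probes have no mapped position and are not among the 23, was called at 5 of 5, with -1.60 ± 0.30 at its named probe, and chr1:42758928-42771337 gave -1.78 ± 0.39. The pair with the same 60 bases on opposite strands gave -1.33 ± 0.44 and -1.40 ± 0.43. Pou3f3 itself gave -1.24 ± 0.32 (adjusted p = 0.25) and 2610017I09Rik -1.72 ± 0.64.

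**Figure D5:**
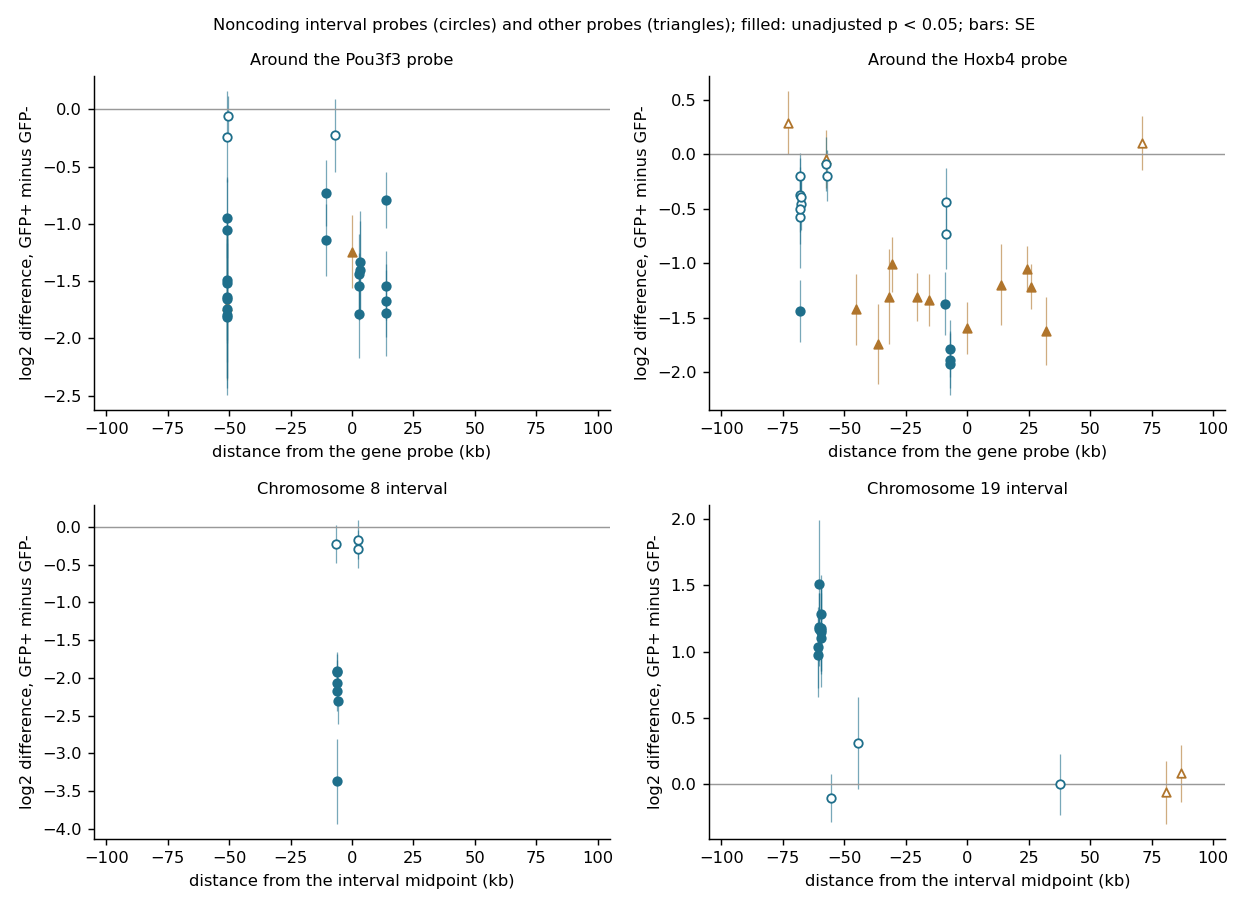
Log2 difference between LSC GFP+ and LSC GFP- cells (bars, SE, 3 arrays per population) against distance in kb, for tested lincRNA interval probes (circles) and other probes (triangles) within 100 kb of the Pou3f3 probe, the Hoxb4 probe and the midpoints of an interval on chromosome 8 and another on chromosome 19. Filled symbols were called at an unadjusted p under 0.05. Of the lincRNA probes 20 of 23 were called around Pou3f3, spread over 65.1 kb, and 5 of 15 around Hoxb4, spread over 61.1 kb. Around the midpoints on chromosomes 8 and 19, 6 of 9 and 10 of 13 were called, within 0.205 kb and 1.39 kb. Each window was set around intervals named for their differences, so these shares follow in part from the choice. Among all tested probes 7.9% were called.

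Further decreases were named by the same rules. A reverse-strand interval 24.8 kb from Il17b on chr18 had 3 of 3 probes called at -1.77 to -1.48. Near the edge of detection, chr2:31001736-31006911 had 3 of 5 tested probes called, 2 of which were not above background on any LSC GFP+ array, where LSC GFP- cells were at least 1.51-fold and 2.08-fold higher. The probe chr2:31005514-31005573, 1 of these 2, had the lowest adjusted p among the lincRNA probes (0.057, limma). It passed the filter through LSC GFP- cells alone. Its LSC GFP+ values of -6.43, -6.51 and -6.58 were below the background call, so their narrow spread, on which this p rests, is not that of a detected signal. In chrX:47893703-47996700, which holds the transcript 6720401G13Rik, 2 of 5 tested probes were called, and in 1 of them LSC GFP- cells were at least 2.96-fold higher. The RefSeq probes of 6720401G13Rik gave -0.87 to -0.23 and were not called, except that the lowest was with the block. In chr10:109653855-109858347, where 1 probe has the same bases as the array's Nav3 probe, the 2 called probes of 3 rested on LSC GFP+ replicates 1 and 3, at -6.66 and -5.66 for the brighter probe, while replicate 2 read -2.83, close to the LSC GFP- arrays at -2.30, -2.14 and -2.89.

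Fewer lincRNA probes rose in LSC GFP+ cells. On chromosome 19, 9 of 10 tested probes of the reverse strand of chr19:23068397-23190256 and 3 of 3 forward probes of the overlapping chr19:23064968-23069896 were called. The reverse probe printed above read 0.14, -0.07 and -0.82 in LSC GFP+ and -1.03, -1.25 and -1.96 in LSC GFP- cells (1.17 ± 0.34, adjusted p = 0.33). Its forward partner, which shares 32 bases, read -0.04, 0.01 and -0.81 and -1.27, -1.18 and -1.83 (1.15 ± 0.30, adjusted p = 0.26). At both probes the 3 LSC GFP+ arrays exceeded the 3 LSC GFP- arrays. Their intervals were named by a called probe without overlap, so this is no further result. The called probes with a position lay within 1.39 kb of each other, and probes elsewhere in the longer interval gave -0.10 to 0.31 and were not called. The reverse probe with the largest increase among those above background on all 6 arrays, 1.51 ± 0.28 (adjusted p = 0.13), has no mapped position in the design. The ion channel gene Trpm3, whose nearest probe lies 64.4 kb from the shorter interval, was higher by 1.17 ± 0.32 and 0.94 ± 0.39 at 2 probes, and Klf9, a transcription factor gene 50.2 kb from the longer interval, gave 0.16 ± 0.21 and was not called.

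Among probes above background on all 6 arrays the largest increase was in chr10:120336296-120354471, 6.08 kb from Lemd3. Its printed probe read -1.07, -2.25 and -1.77 in LSC GFP+ and -2.61, -3.53 and -3.95 in LSC GFP- cells (1.66 ± 0.41, adjusted p = 0.24 by limma). Of its 5 probes 2 were called, and 3 with the block. The lowest difference of the 5, -0.09, was at the brightest probe, which read 3.61 on average. On the forward strand of the interval the brighter probes, at 1.95 and 1.83, gave -0.10 and -0.08. The dimmer ones, at -2.75 and -3.52, gave 0.94 and 0.40 and were not called. The increase was thus seen at dim probes only. Lemd3, a gene for a protein of the inner nuclear membrane, gave 0.17 ± 0.23. Near Egr3, an immediate-early transcription factor gene 4.27 kb away, the printed probe of chr14:70483555-70484159 read -0.57, -2.47 and -2.15 in LSC GFP+ and -2.85, -2.86 and -4.41 in LSC GFP- cells (1.64 ± 0.58, adjusted p = 0.48). The populations did not overlap there, as the rule for naming a probe required. However, LSC GFP+ replicate 1 and LSC GFP- replicate 3 each lay far from the other arrays of their population. The call did not survive leaving out either one. Egr3 gave 0.66 ± 0.31 and was not called. The 5 other increases named by the rule were 1.04 to 1.18, in the chromosome 19 forward interval and near Mtf2, Cuedc2, Arhgef3 and Fem1c. Of the genes within 10 kb among these Mtf2 gave 0.13 ± 0.20 at its brighter probe, Cuedc2 0.02 ± 0.25 and Fem1c 0.15 ± 0.20, so none of the 3 was called.

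Across the array the agreement between an interval and its nearest RefSeq gene, coding or noncoding, faded with distance. With 1 value per interval, the mean of its tested probes, and the brightest tested probe of the nearest RefSeq gene, Pearson's r across intervals was 0.55 (Spearman's rho 0.54) over the 223 intervals holding the gene probe, 0.31 (0.25) over 680 within 10 kb, 0.11 (0.11) over 1301 at 10 to 100 kb and 0.03 (0.06) over 340 beyond. These values share arrays, and several intervals share a gene, so they carry no p. Of the 289 intervals that hold a RefSeq probe, tested or not, 149 hold one of a protein-coding transcript. In the first class an interval can thus be set against its own noncoding RNA, as for H19 or Neat1, and r = 0.55 is not agreement with a neighbor alone. Where the nearest gene within 10 kb was called lower in LSC GFP+ cells (20 intervals) the median difference of the intervals was -0.50, and where it was called higher (36 intervals) it was 0.12. The share of lincRNA probes called followed the same order, 8.98% in intervals holding a gene probe, 7.80% within 10 kb, 6.17% at 10 to 100 kb and 3.63% beyond 100 kb. With the block these shares were 15.9%, 13.98%, 12.1% and 9.65%.

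The marker genes of the sorted cells and of cells that could accompany them also moved. All 6 basal genes were above background on all 6 arrays and 3 rose in LSC GFP+ cells, with a summed level of 7.78 to 7.95 in LSC GFP+ and 7.43 to 7.55 in LSC GFP- cells. Of 7 stromal genes 5 fell and 1 rose, with a summed level of 4.22 to 4.64 in LSC GFP+ and 4.38 to 5.88 in LSC GFP- cells, and all 5 smooth muscle genes fell, from 4.21 to 5.16 in LSC GFP- to 2.57 to 3.25 in LSC GFP+ cells. Of 5 luminal genes 1 rose. Among all tested probes 3.38% were called higher and 4.53% lower in LSC GFP+ cells. Endothelial (3 of 5 tested), immune (4 of 5) and neural and glial genes (7 of 9) had no called member. With the block 4 of the 7 neural and glial genes were called, all lower in LSC GFP+ cells, against 14.8% of all tested probes called in either direction. In the immune list Lyz2 was above background on no array. The stromal and smooth muscle genes fell beside the Hoxb, Pou3f3 and chromosome 8 intervals, and their part in those decreases was not tested. In sorted bulk samples fewer cells of a type and less RNA per cell cannot be told apart.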

How the data were processed

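RNA of 3 LSC GFP+ and 3 LSC GFP- samples, amplified with the Ovation Pico WTA System, was hybridised to single-colour Agilent arrays (Cy3). The deposited intensity values come from Feature Extraction, version 11.0.1.1 per the file headers and 10.7.3.1 in the submitters' processing notes, with background and spatial trend removed and no normalization between arrays. All 6 arrays share a slide and a scan, so neither can be tested as a batch. The authors' series table holds the same intensities rounded, as all values lay within 0.6% of the scanner values. No spot was saturated, and 123 to 154 outlier spots per array were left out.

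Signals were taken as log2 minus the 75th percentile of each array. A probe was tested if it was called well above background on all 3 arrays of one population or of both. The test was limma's moderated statistic (version 3.58.1, run in R 4.3.3, two-sided, population as the only term), with Benjamini-Hochberg adjustment over all 37005 probes tested. For 6 tested lincRNA probes an outlier spot left 5 arrays. Where a population was below background on all its arrays, a fold is a lower bound, set against the lowest signal called above background on each array. The number of arrays limits the precision, and p-values measure the spread between 3 samples. Positions, intervals and names are the array design's, in mm9. Distances run to the nearest probe with a RefSeq accession, not to a gene's ends. Named probes are the 8 largest increases and 8 largest decreases among called probes above background on all 6 arrays without overlap (1 per name), the 8 brightest names, the 6 names with 2 or more called probes and the largest mean difference, and the RNAs listed by symbol. The members and lists were chosen with earlier results of these data known. The code was tested on simulated data. One of the brightest names is not reported here.

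Same-numbered samples deviated together over the lincRNA probes (r = 0.41, 0.30 and 0.61 for replicates 1, 2 and 3), as over all tested probes (0.43, 0.28 and 0.67). The numbers, taken from the sample titles, were therefore taken to pair the samples, but the values given come from the fit without a block, the study's methods naming none. A fit with the block raised the lincRNA calls to 1286, and its value stands beside the main counts and most results whose call it changed. Among the others, it called 3 of 3 tested probes in chr10:109653855-109858347. In the named intervals near Arhgef3 and Mtf2 it called 2 probes each, against 1 without it. With it 1 RefSeq probe of H19 was called lower and 1 of Tug1 higher in LSC GFP+ cells.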

Additional observations from a re-analysis of the deposited data

How the results depend on the processing

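The number of lincRNA probes called (674, of which 205 higher and 469 lower) was within 1.5 times with the methods' t-test, an intensity trend, normexp background correction, each of 3 dim-probe filters, the rounded values and scaling to the array median. Quantile normalization gave 344 higher probes. The replicate block gave 1286 calls, 484 higher and 802 lower. Leaving out 1 array at a time gave 494 to 1179 calls, 166 to 311 higher and 317 to 1011 lower. The median difference ranged from -0.153 to 0.018 without 1 array and moved by less than the SD of the array medians (0.19) throughout. The detection gap of -5.67 points was -0.621 with the positive and significant flag (exact p = 0.125) and reversed to 14.9 when each interval name counted once against single other probes, since a name then has several chances to be detected. Of 25 named probes that were called, 12 were called in every fit that tested them, and none of the 25 changed sign. Of the 8 probes named as the brightest, which were not called, 5 changed sign in at least 1 fit, to values between -0.0218 and 0.0856. Uncalled probes of the RNAs listed by symbol are not part of these counts. The methods' t-test lost 13 of the 25, and the block changed no call of the 25. Signal over background limits the dim probes most, since 3093 lincRNA probes were well above background on no array, and a probe that passed through 1 population alone gives only a bound in the other.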
